A study of Rattus norvegicus with 35 samples.

Results

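Pyruvate kinase and pyruvate carboxylase act on the same metabolite at the junction of sugar breakdown and sugar synthesis. Their genes had the lowest mean scores of the 7 groups in livers of rats fed 1800 ppm triadimefon. Both were called lower there than in control livers. Across alternative fits, the call held in 17 of 21 for the kinase gene Pklr and in 9 of 20 for the carboxylase gene Pc. Of these fits, 11 left out a single array each, and the call held in 11 of those for Pklr and in 6 for Pc. A second Pklr probe set did not pass. None of the other 6 measured genes of hepatic glucose metabolism passed the test in any of the 12 comparisons. The genes were Pklr, Pc, Pck1, G6pc1, Fbp1, Pfkfb1, Slc2a2, Gys2 and Mlxipl, taken by gene symbol from the annotation of the array. 8 of these 9 genes had a probe set annotated to them alone, and these 8 genes stand for 8 of 14217 named genes and 9 of 31042 probe sets. G6pc1 had only 4 probe sets that the annotation shares with Psme3 and Aoc3, so it is described apart and is not counted among the 8. Each gene was represented by its probe set of highest mean score, and only Pklr had a further one.

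The arrays measured liver RNA of individual Wistar Han IGS rats exposed through the feed to 1 of 3 triazole fungicides between gestation day 6 and postnatal day 92. The groups were triadimefon at 1800 ppm (4 arrays) and 500 ppm (5 arrays), propiconazole at 2500 ppm (4 arrays) and 500 ppm (3 arrays), myclobutanil at 2000 ppm (4 arrays) and 500 ppm (5 arrays), and controls at 0 ppm (7 arrays). The series' design text calls the animals biological replicates, and the p-values therefore cover variation from animal to animal. The sources used here do not give the litters. 3 further arrays, 1 of myclobutanil 2000 ppm and 2 of propiconazole 500 ppm, hold no values. All values are the authors' deposited scores, whose scale, log base and centring are not stated, so differences are given as differences of scores and not as folds, and the score of one probe set is not set against that of another.

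The liver takes up glucose after a meal through the facilitative transporter Slc2a2, stores it as glycogen through glycogen synthase, and breaks it down to pyruvate in a pathway that ends with pyruvate kinase. In fasting it makes glucose from pyruvate in steps run by pyruvate carboxylase, phosphoenolpyruvate carboxykinase, fructose-bisphosphatase and glucose-6-phosphatase, which releases the sugar. Mlxipl encodes ChREBP, the transcription factor that responds to carbohydrate and is known to act on the pyruvate kinase promoter, whereas Pck1 is known for its induction by glucagon through cAMP.

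The samples were checked against marker genes, since testis is the tissue named for extraction, and liver that named in the titles and for labelling. The 9 hepatocyte markers had mean scores above at least 99.66% of probe sets. Scores of Prm1, a protamine of sperm cells, exceeded 2 on 5 arrays (triadimefon 1800 ppm replicate 2, triadimefon 500 ppm replicate 3, myclobutanil 2000 ppm replicate 5 and myclobutanil 500 ppm replicates 2 and 5), with values between 2.15 and 3.15, against -0.329 to 1.715 on the other 27 arrays. Scores were lowest, at -0.329 to -0.237, for triadimefon 1800 ppm replicates 1, 3 and 4 and controls 5 and 6. All other arrays scored at least 0.526. The part of Prm1-type signal in the results was not tested beyond leaving out the arrays above 2. A second feature was the difference between the 3′ and the 5′ control probe sets of GAPDH and β-actin, a measure of RNA integrity and of labelling. The GAPDH difference was above 0.9 on 9 arrays, namely triadimefon 1800 ppm replicates 2 to 4, myclobutanil 500 ppm replicates 1 and 5, and controls 4 to 7. The same 3 triadimefon animals and controls 5 to 7 have animal numbers above 3000 in the titles, and all other animals have lower numbers. The sources used here do not say what these number series stand for.

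**Figure D1:**
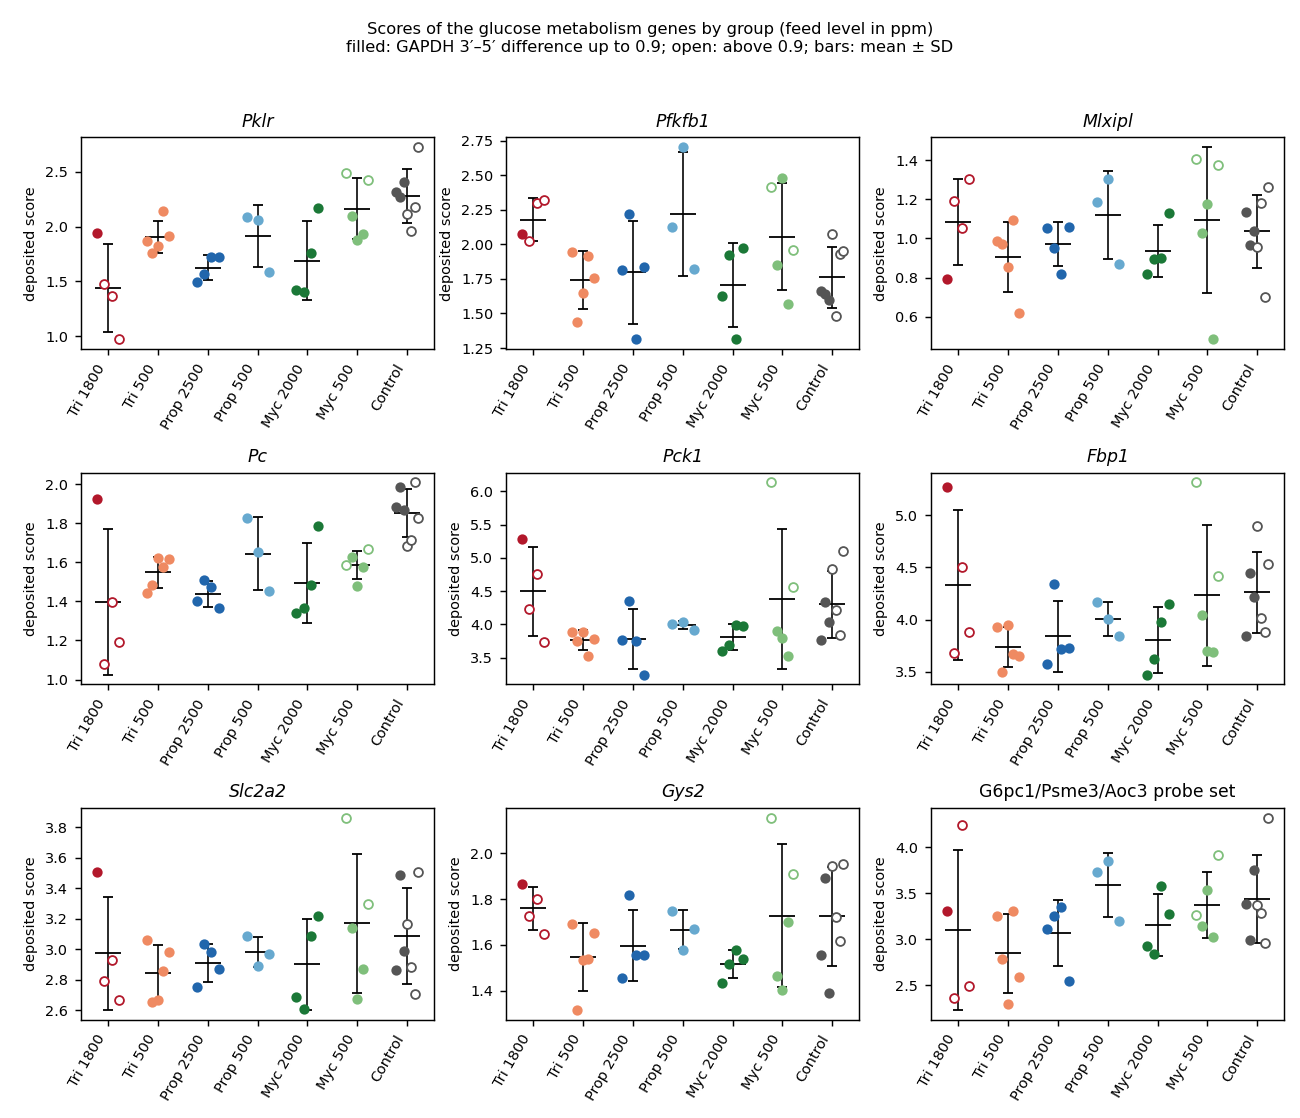
Deposited scores of the 8 genes and of the probe set shared by G6pc1, Psme3 and Aoc3 (vertical axes), 1 point per array, in the 7 groups (horizontal axes; Tri, triadimefon; Prop, propiconazole; Myc, myclobutanil, with the feed level in ppm). Bars give the mean ± SD, and open points mark the 9 arrays of high GAPDH 3′–5′ difference. Pklr and Pc averaged lowest at triadimefon 1800 ppm, with 1.44 and 1.40, and highest in the controls, with 2.28 and 1.85.

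Pklr encodes the liver pyruvate kinase, which converts phosphoenolpyruvate to pyruvate. Its promoter is shown because it is the best known place where carbohydrate acts on one of these genes. In RefSeq's GRCr8 rat assembly the window from 250 bases before to 50 bases after the Pklr start lies at chr2:176841014-176841313 on the plus strand. The capitals mark a match to the carbohydrate response element, searched on both strands as CANGNGNNNNNCNCNTG.
Pklr promoter: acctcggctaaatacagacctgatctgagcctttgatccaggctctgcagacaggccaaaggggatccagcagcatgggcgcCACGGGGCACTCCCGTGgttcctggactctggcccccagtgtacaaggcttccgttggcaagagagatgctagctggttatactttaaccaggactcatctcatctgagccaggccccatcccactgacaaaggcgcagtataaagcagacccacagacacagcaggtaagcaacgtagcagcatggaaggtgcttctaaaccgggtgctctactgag
The match spans positions -168 to -152 from the start. The same letters occurred in 188 of 33469 rat promoters of that length, which is 0.562%. Of the 8 listed genes with a promoter entry (all but Pc), Pklr was the one with a match, and none had the E-box CACGTG, which 6.42% of all promoters hold.

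Pklr scored 1.94, 1.47, 1.37 and 0.971 in the 4 livers of triadimefon 1800 ppm, against 1.96 (lowest), 2.27 (median) and 2.72 (highest) in the 7 control livers. All 4 triadimefon livers lay below all 7 controls, although the highest of them came within 0.02 of the lowest control. Of all probe sets, 0.226% were separated in this way. The mean was 1.44 ± 0.40 in triadimefon livers and 2.28 ± 0.244 in controls (SD, n = 4 and 7), and Pklr fell by 0.841 ± 0.163 (SE) with an adjusted p of 0.00540 in limma. The second Pklr probe set scored 1.58, 0.712, 0.976 and 0.401 in triadimefon livers and 1.09 to 1.85 in controls, a difference of -0.608 that did not pass (adjusted p = 0.0713).

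Pc encodes the mitochondrial pyruvate carboxylase, which turns pyruvate into oxaloacetate for glucose synthesis and for the citric acid cycle. It scored 1.92, 1.08, 1.40 and 1.19 in triadimefon 1800 ppm livers, against 1.69 (lowest), 1.87 (median) and 2.01 (highest) in control livers. The first of the triadimefon livers lay inside the control range and the other 3 lay below it. Pc fell by 0.455 ± 0.106 (SE) at this level in limma (adjusted p = 0.0254). With Pklr it made 2 of 8 genes called lower and 0 called higher, in a comparison that called 1.17% of all probe sets (0.129% lower and 1.04% higher). The median difference of the 8 genes was 0.0420, beside 0.0185 over all probe sets.

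The falls of Pklr and Pc at triadimefon 1800 ppm rested on unequal support. Triadimefon replicate 1, the liver with the highest Pklr and Pc scores of its group, was its only animal numbered below 3000 and its only array of GAPDH 3′–5′ difference up to 0.9. By the mean of the GAPDH and β-actin differences it was not set apart, with 1.17 beside 1.16 for replicate 3. Control 2, also among the arrays of lower GAPDH difference, had 1.11. With the number series as a block, Pklr still fell by 0.777 (adjusted p = 0.0174) and the Pc difference was -0.385 (adjusted p = 0.0722). Among animals above 3000 alone (3 against 3) the differences were -1.02 for Pklr and -0.626 for Pc, and among those below 3000 (1 against 4) they were -0.330 and 0.0669, with adjusted p between 0.246 and 0.847. With the 9 arrays of high 3′–5′ difference left out (1 against 3) they were -0.385 (adjusted p = 0.283) and 0.0103 (adjusted p = 0.973). With the 3′–5′ difference kept in the fit as a covariate over all arrays, both genes passed, at -0.862 for Pklr (adjusted p = 0.00337) and -0.437 for Pc (adjusted p = 0.0240).

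Leaving out 1 array of this comparison at a time never ended the call of Pklr, whose adjusted p stayed between 0.00105 and 0.0479. The call of Pc was lost without control 2 (adjusted p = 0.0550), control 6 (0.0506), triadimefon replicate 2 (0.128), replicate 3 (0.0560) or replicate 4 (0.124). Without the 5 arrays of high Prm1 score, an alternative chosen after seeing the data, Pklr fell by 0.852 (adjusted p = 0.0193) and the Pc difference was -0.349 (adjusted p = 0.136).

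**Figure D2:**
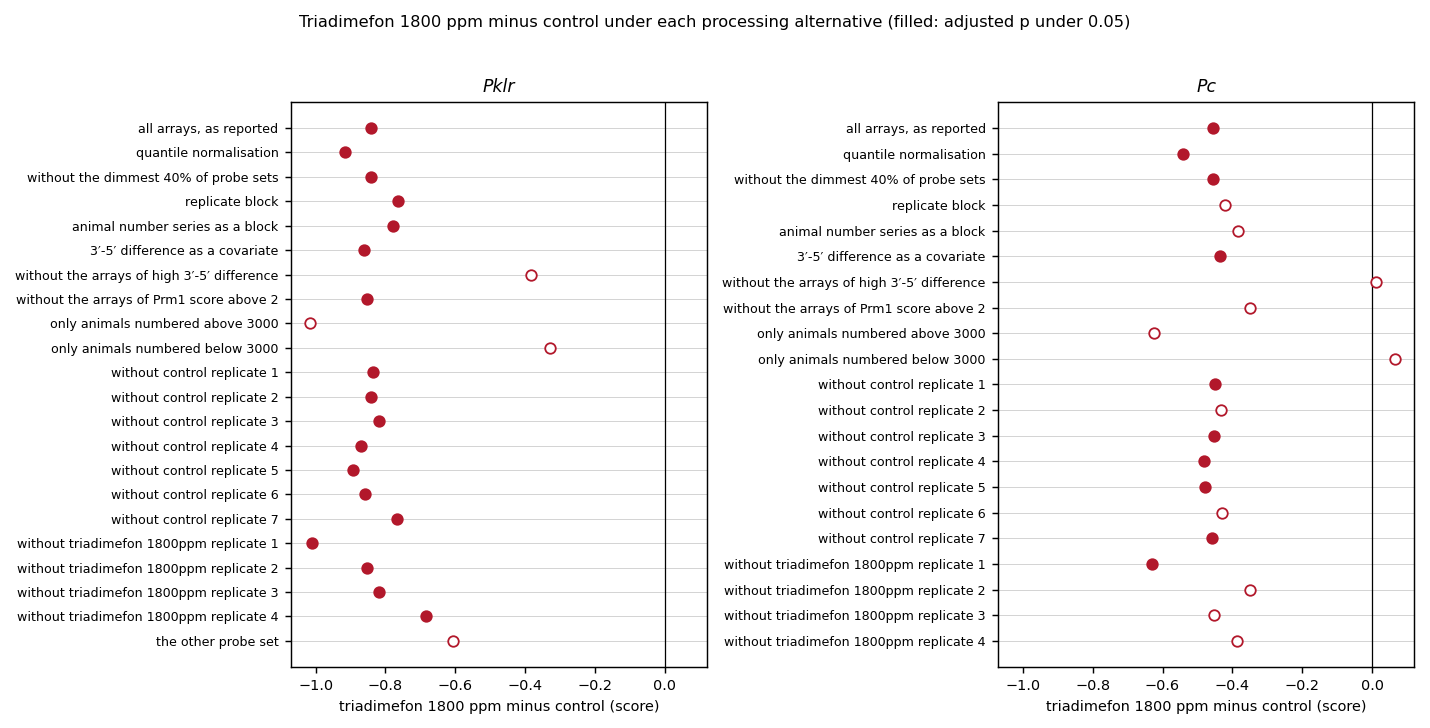
Difference of scores, triadimefon 1800 ppm minus control, of Pklr (left) and Pc (right) on the horizontal axes, with all arrays (top) and under each processing alternative or left-out array (rows). Filled points have an adjusted p under 0.05 in limma. Pklr ran from -1.02 to -0.330 and stayed below 0 in every row, whereas Pc ran from -0.629 to 0.0669 and crossed 0 where triadimefon replicate 1 stood alone.

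Summed scores of some markers of other liver cells lay high in these livers, in a comparison where 34.3% of all probe sets had a negative difference and 1.17% were called. The 8 Kupffer cell markers summed to 9.66 to 13.3 in triadimefon 1800 ppm livers and 7.18 to 10.8 in controls. Of their differences 8 of 8 were positive and 0 passed the limma threshold, beside 1.17% of all probe sets. The 8 stellate cell markers summed to 4.57 to 5.74 in triadimefon livers and 3.42 to 4.40 in controls. The 5 biliary markers summed to 0.516 to 1.21 in triadimefon livers and 0.0270 to 0.318 in controls. Both lists did not overlap, and 1 marker of each passed. Of single probe sets, 1.18% had every triadimefon liver above every control. The biliary markers Krt19, Krt7 and Cftr had mean scores below 0 over all arrays. The median difference was 0.0788 over the stellate markers, of which 6 of 8 were positive, and 0.0245 over the biliary markers, of which 5 of 5 were positive. The sums of the 4 endothelial markers, 5.47 to 6.43 in triadimefon livers and 4.67 to 5.92 in controls, overlapped, with 4 of 4 differences positive and 0 called. The 2 erythroid markers summed to 3.65 to 6.03 in triadimefon livers and 3.91 to 5.94 in controls, with 1 of 2 positive and 0 called. For the 7 testis markers the sums were -1.06 to 5.78 in triadimefon livers and -0.650 to 2.99 in controls, with 2 of 7 positive and 0 called. The 9 hepatocyte markers summed to 41.8 to 53.4 in triadimefon livers and 37.6 to 50.4 in controls, with 9 of 9 differences positive. The part of these shifts in the Pklr and Pc results was not tested. In such bulk samples, a change in the number of cells of a type and a change in RNA per cell cannot be told apart.

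At the high levels of the other compounds the scores of Pklr and Pc also lay low, without passing the test. In propiconazole 2500 ppm livers Pklr scored 1.49, 1.57, 1.72 and 1.72, and Pc scored 1.40, 1.51, 1.47 and 1.37. All 4 livers were below every control for both genes, a separation that 2.07% of all probe sets showed. The differences from controls were -0.655 ± 0.163 for Pklr (adjusted p = 0.0707) and -0.414 ± 0.106 for Pc (SE, adjusted p = 0.0747 in limma). Both passed when control 1 was left out (adjusted p = 0.0419 and 0.0456) or control 3 (0.0410 and 0.0415). Those fits called 984 and 1030 of all probe sets, beside 79 with all arrays.

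In myclobutanil 2000 ppm livers Pklr scored 1.42, 1.40, 1.76 and 2.17, and Pc scored 1.34, 1.37, 1.48 and 1.79. In both genes the first 3 livers lay below all controls and the fourth, which is the array of high Prm1 score in this group, lay among them. The differences from controls were -0.591 ± 0.163 for Pklr (adjusted p = 0.0841) and -0.358 ± 0.106 for Pc (SE, adjusted p = 0.0922 in limma). Both passed without control 3 (adjusted p = 0.0389 and 0.0440), in a fit that called 3013 of all probe sets, beside 20 with all arrays. Of the 8 genes 0 were called at either of these levels, where limma called 0.254% of probe sets at propiconazole 2500 ppm and 0.0644% at myclobutanil 2000 ppm. At an unadjusted p under 0.05 it was 2 of the 8 genes at each, beside 19.9% and 24.2% of probe sets.

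At 500 ppm the group means lay between those of the high levels and the controls. Pklr scored 1.87, 1.76, 1.83, 2.14 and 1.91 with triadimefon, 2.09, 2.06 and 1.58 with propiconazole, and 2.49, 2.10, 1.88, 1.93 and 2.43 with myclobutanil. The last of these groups spread across the control range. Pc scored 1.44, 1.48, 1.62, 1.58 and 1.61 with triadimefon, 1.82, 1.65 and 1.45 with propiconazole, and 1.58, 1.63, 1.48, 1.57 and 1.67 with myclobutanil. For Pc, every triadimefon and every myclobutanil liver at 500 ppm lay below every control, as 2.2% and 0.0451% of probe sets did in these comparisons, and 1 of 3 propiconazole livers overlapped the controls.

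None of these differences at 500 ppm passed. For Pklr they were -0.379 ± 0.153 with triadimefon, -0.368 ± 0.180 with propiconazole and -0.116 ± 0.153 with myclobutanil, and for Pc -0.304 ± 0.0988, -0.208 ± 0.116 and -0.265 ± 0.0988 in the same order (SE). The adjusted p in limma lay between 0.0830 for Pc with triadimefon and 1 with myclobutanil. Of the 8 genes 0 were called at 500 ppm of any compound, where limma called 0.00966% of probe sets with triadimefon, 0% with propiconazole and 0% with myclobutanil. At an unadjusted p under 0.05 it was 2, 1 and 1 of the 8 genes, beside 29.3%, 9.23% and 4.13% of probe sets.

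Counted over the 25 treated livers, 22 scored below every control for Pc and 18 did so for Pklr, and none scored above every control for either gene. 0.0612% of all probe sets had at least 22 such livers and 0.734% had at least 18. The 6 comparisons with the controls share the same 7 control livers, so a low or high control enters all of them. Ordered by group mean, Pklr was lowest at triadimefon 1800 ppm (1.44), followed by propiconazole 2500 ppm (1.62), myclobutanil 2000 ppm (1.69), triadimefon 500 ppm (1.90), propiconazole 500 ppm (1.91), myclobutanil 500 ppm (2.16) and the controls (2.28). No 2 neighbours in that order differed by more than the larger SD of the pair. For Pc the order, again low to high, was triadimefon 1800 ppm (1.40), propiconazole 2500 ppm (1.44), myclobutanil 2000 ppm (1.49), triadimefon 500 ppm (1.55), myclobutanil 500 ppm (1.59), propiconazole 500 ppm (1.64) and the controls (1.85). Of these steps only that between propiconazole 500 ppm and the controls (0.208) exceeded the larger SD (0.185).

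Over all 7 groups in 1 test, limma's moderated F was 6.61 for Pklr (adjusted p = 0.0189) and 4.54 for Pc (adjusted p = 0.0456), so that 2 of the 8 genes differed among groups, as 6.76% of probe sets did. The call of Pc was lost in 22 of 32 fits that left out 1 array, with an adjusted p between 0.0512 and 0.0882. These arrays were triadimefon 1800 ppm replicates 2 to 4, all of triadimefon 500 ppm and propiconazole 2500 ppm, propiconazole 500 ppm replicate 1, myclobutanil 2000 ppm replicates 2 to 4 and all controls but control 3. That of Pklr held in all 32 of them, and was lost with the number series as a block (adjusted p = 0.0649), with a covariate for the 3′–5′ difference (0.0617), with the second Pklr probe set (0.10) and without the 5 arrays of high Prm1 score (0.0534).

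**Figure D3:**
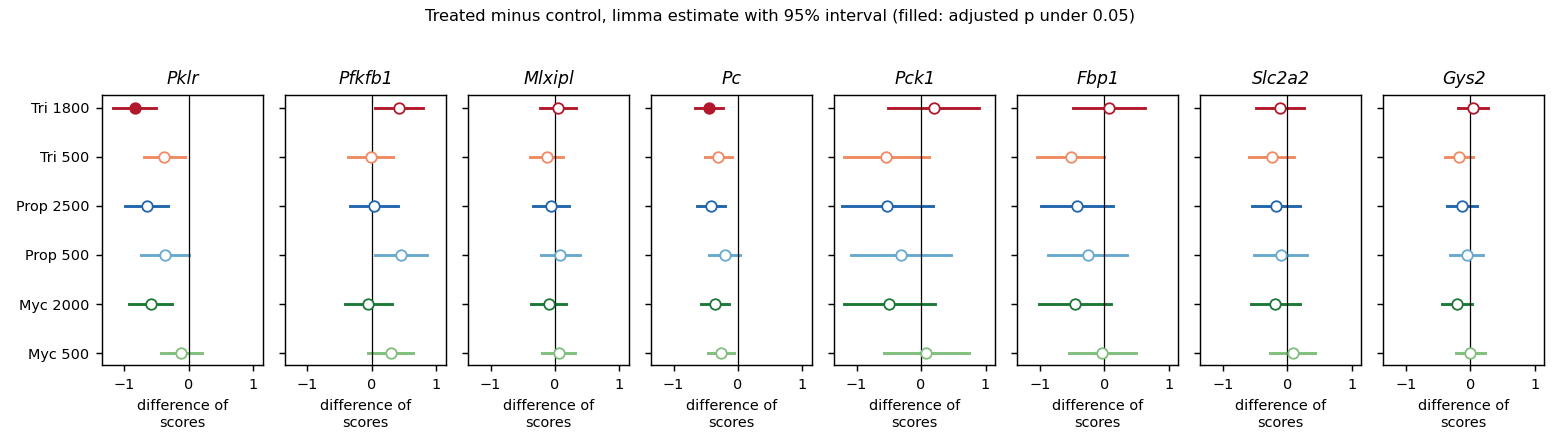
Difference of scores from the controls (horizontal axes) for the 8 genes in the 6 treated groups (rows), as the limma estimate with its 95% interval. Filled points have an adjusted p under 0.05. Filled points occur for Pklr and Pc at triadimefon 1800 ppm, and the intervals of Pc exclude 0 in every group but propiconazole 500 ppm.

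Pck1 encodes the cytosolic phosphoenolpyruvate carboxykinase, the committed step of glucose synthesis. Its promoter is shown beside that of Pklr as the counterpart known to answer to cAMP, at chr3:182348322-182348621 on the plus strand of GRCr8. The capitals mark the match, on the opposite strand, to TGACG, the core of the cAMP response element.
Pck1 promoter: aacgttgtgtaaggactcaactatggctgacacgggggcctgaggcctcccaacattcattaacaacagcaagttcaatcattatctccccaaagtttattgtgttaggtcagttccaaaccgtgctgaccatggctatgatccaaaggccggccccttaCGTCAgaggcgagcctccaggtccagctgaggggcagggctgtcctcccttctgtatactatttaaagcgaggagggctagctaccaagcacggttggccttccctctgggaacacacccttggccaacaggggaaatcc
It lies at positions -90 to -86 from the start, and TGACG occurs in 21.2% of rat promoters of this length and in no other of the 8 listed genes with an entry.

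Pck1 scored 5.28, 4.23, 4.75 and 3.73 in triadimefon 1800 ppm livers, against 3.76 (lowest), 4.23 (median) and 5.11 (highest) in controls. The triadimefon livers straddled the control range on both sides, and the difference of 0.195 (95% interval -0.510 to 0.901) did not pass (adjusted p = 0.911 in limma). The group means ran from 4.50 ± 0.666 at triadimefon 1800 ppm through 4.38 ± 1.05 at myclobutanil 500 ppm, 4.30 ± 0.502 in controls, 3.99 ± 0.0609 at propiconazole 500 ppm, 3.81 ± 0.199 at myclobutanil 2000 ppm and 3.78 ± 0.455 at propiconazole 2500 ppm to 3.76 ± 0.149 at triadimefon 500 ppm (SD). No neighbours in this order differed beyond the larger SD. The highest score of all 32 arrays, 6.14, came from myclobutanil 500 ppm replicate 1, which also had the largest 3′–5′ difference of the study, 2.45.

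Fbp1, the fructose-bisphosphatase that undoes the phosphofructokinase step, overlapped with the controls in the same way. It scored 5.27, 3.68, 4.50 and 3.88 in triadimefon 1800 ppm livers, against 3.84 (lowest), 4.22 (median) and 4.89 (highest) in controls. 1 triadimefon liver lay above and 1 below all controls, and the difference was 0.0728 (95% interval -0.487 to 0.633). The means were 4.33 ± 0.715 at triadimefon 1800 ppm, 3.74 ± 0.193 at triadimefon 500 ppm, 3.84 ± 0.341 at propiconazole 2500 ppm, 4.00 ± 0.166 at propiconazole 500 ppm, 3.81 ± 0.314 at myclobutanil 2000 ppm, 4.23 ± 0.676 at myclobutanil 500 ppm and 4.26 ± 0.387 in controls (SD). The lowest of these, at triadimefon 500 ppm, was 0.521 below the controls (adjusted p = 0.172 in limma).

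For Pck1 and Fbp1 the difference at triadimefon 1800 ppm depended on which arrays were kept. Dropping the 9 arrays of high 3′–5′ difference leaves replicate 1 as the only triadimefon liver, against controls 1 to 3. That fit assumes that the replicate varies like the other groups. The differences were then 1.24 for Pck1 and 1.10 for Fbp1. With 1 triadimefon liver, the calls of that fit and of its F test over all 7 groups are not read as results. None of the other alternatives called either gene in this comparison. Across all groups, 7 of the 9 arrays of high 3′–5′ difference scored above the median of the other 23 for Pck1, and 8 of 9 for Fbp1. The part of the 3′–5′ difference in these scores was not tested beyond the alternatives.

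**Figure D4:**
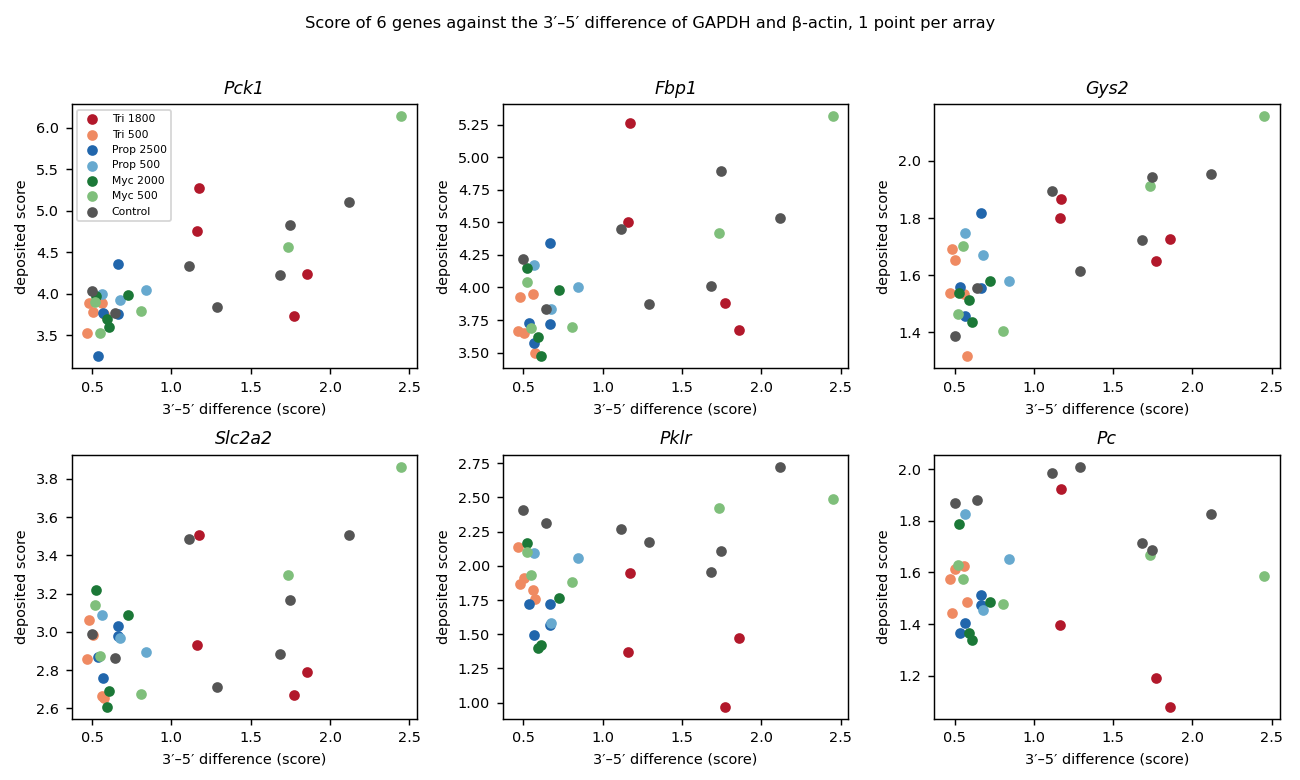
Deposited score of 6 genes (vertical axes) against the mean 3′–5′ difference of the GAPDH and β-actin control probe sets (horizontal axes), 1 point per array, coloured by group. Gys2 scored above the median of the other 23 arrays on 9 of the 9 arrays of high GAPDH difference, and Slc2a2 on 4 of 9. The 3 lowest Pklr and Pc scores of triadimefon 1800 ppm come from arrays of high GAPDH difference. Over all groups, 6 of the 9 such arrays scored above the median of the other 23 for Pklr, and 6 of 9 for Pc.

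The glucose-6-phosphatase gene G6pc1, whose enzyme releases glucose into the blood, was read through the probe set with the highest mean of the 4 it shares with Psme3 and Aoc3. Its accession is the G6pc1 transcript of RefSeq, but the annotation does not settle which gene it reports. It scored 3.30, 2.36, 4.24 and 2.49 in triadimefon 1800 ppm livers, against 2.95 (lowest), 3.37 (median) and 4.32 (highest) in controls. Of the triadimefon livers 2 lay below all controls and 2 within their range. The means were 3.10 ± 0.869 at triadimefon 1800 ppm, 2.84 ± 0.431 at triadimefon 500 ppm, 3.06 ± 0.360 at propiconazole 2500 ppm, 3.59 ± 0.347 at propiconazole 500 ppm, 3.15 ± 0.341 at myclobutanil 2000 ppm, 3.37 ± 0.358 at myclobutanil 500 ppm and 3.43 ± 0.475 in controls (SD). The largest difference from the controls was -0.590 ± 0.273 at triadimefon 500 ppm (SE, adjusted p = 0.153 in limma). The probe set of second highest mean differed in the other direction there (0.122), at propiconazole 2500 ppm (0.288, against -0.371 for the first) and at myclobutanil 2000 ppm (0.363, against -0.281), and by 0.782 ± 0.389 at propiconazole 500 ppm (SE, adjusted p = 0.541). None of these passed, and no direction is given for G6pc1.

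Slc2a2 encodes the glucose transporter through which hepatocytes exchange glucose with the blood in both directions. It scored 3.51, 2.79, 2.93 and 2.67 in triadimefon 1800 ppm livers, against 2.71 (lowest), 2.99 (median) and 3.51 (highest) in controls, and the groups overlapped. The means were 2.97 ± 0.372 at triadimefon 1800 ppm, 2.85 ± 0.185 at triadimefon 500 ppm, 2.91 ± 0.123 at propiconazole 2500 ppm, 2.98 ± 0.10 at propiconazole 500 ppm, 2.90 ± 0.298 at myclobutanil 2000 ppm, 3.17 ± 0.456 at myclobutanil 500 ppm and 3.09 ± 0.313 in controls (SD). All 6 differences from the controls lay between -0.241 and 0.0835, and the smallest adjusted p was 0.333 in limma, at triadimefon 500 ppm.

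Gys2 encodes the liver glycogen synthase, which lengthens glycogen. It scored 1.87, 1.73, 1.80 and 1.65 in triadimefon 1800 ppm livers, against 1.39 (lowest), 1.72 (median) and 1.95 (highest) in controls. The triadimefon livers all lay within the control range, and the difference was 0.0358 (95% interval -0.198 to 0.269). The means were 1.76 ± 0.0936 at triadimefon 1800 ppm, 1.55 ± 0.146 at triadimefon 500 ppm, 1.60 ± 0.154 at propiconazole 2500 ppm, 1.67 ± 0.0845 at propiconazole 500 ppm, 1.52 ± 0.0606 at myclobutanil 2000 ppm, 1.73 ± 0.312 at myclobutanil 500 ppm and 1.72 ± 0.217 in controls (SD). The lowest mean, at myclobutanil 2000 ppm, was 0.207 below the controls (adjusted p = 0.253 in limma).

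Pfkfb1 encodes the liver form of the bifunctional enzyme that makes and removes a fructose bisphosphate used as a signal between sugar breakdown and synthesis. That signal is a different molecule from the fructose bisphosphate on which Fbp1 acts. Pfkfb1 scored 2.07, 2.02, 2.30 and 2.32 in triadimefon 1800 ppm livers, against 1.48 (lowest), 1.66 (median) and 2.07 (highest) in controls. Of these livers 2 lay above all controls and 2 near the top of their range, with a difference of 0.416 ± 0.180 (SE, adjusted p = 0.373 in limma). In propiconazole 500 ppm livers it scored 2.12, 2.70 and 1.82, with a difference of 0.454 ± 0.199 (adjusted p = 0.540). The other means were 1.74 ± 0.209 at triadimefon 500 ppm, 1.80 ± 0.373 at propiconazole 2500 ppm, 1.71 ± 0.304 at myclobutanil 2000 ppm, 2.05 ± 0.386 at myclobutanil 500 ppm and 1.76 ± 0.220 in controls (SD). Of the 25 treated livers 7 scored above every control and 3 below.

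Mlxipl, the gene of ChREBP, overlapped with the controls in all groups. It scored 0.791, 1.19, 1.05 and 1.30 in triadimefon 1800 ppm livers, against 0.704 (lowest), 1.04 (median) and 1.26 (highest) in controls. The difference was 0.0482 (95% interval -0.227 to 0.323), in the group with the lowest Pklr. The other means were 0.906 ± 0.180 at triadimefon 500 ppm, 0.971 ± 0.113 at propiconazole 2500 ppm, 1.12 ± 0.223 at propiconazole 500 ppm, 0.935 ± 0.134 at myclobutanil 2000 ppm, 1.09 ± 0.373 at myclobutanil 500 ppm and 1.04 ± 0.184 in controls (SD). For Fbp1, Slc2a2, Gys2, Pfkfb1 and Mlxipl, as for Pck1, no neighbours in the order of group means differed by more than the larger SD of the pair.

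Between levels of 1 compound, limma called 24.8% of probe sets for triadimefon 1800 against 500 ppm and 0 of the 8 genes, with 2 of them, and 41.1% of probe sets, at an unadjusted p under 0.05. Pklr was 0.462 ± 0.175 lower on average at 1800 ppm (SE, adjusted p = 0.0526), and 3 of the 4 livers at that level lay below all 5 at 500 ppm. The second Pklr probe set was lower by a margin of -0.499 that passed (adjusted p = 0.0419). All 4 livers of 1800 ppm scored above all 5 of 500 ppm for Pfkfb1, as 21.8% of probe sets did, with a difference of 0.437 ± 0.193 (SE, adjusted p = 0.0903). Pc differed by -0.151 ± 0.113 (SE, adjusted p = 0.313).

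This comparison changed with the arrays kept and with the scaling. Without triadimefon 1800 ppm replicate 1, both Pklr (-0.630, adjusted p = 0.0176) and Pc (-0.325, adjusted p = 0.0179) passed as lower. Leaving out the arrays of high 3′–5′ difference instead keeps that replicate alone against the 5 livers of 500 ppm and assumes that it varies like the other groups. Pc was then higher by 0.374, Pck1 by 1.52, Fbp1 by 1.53 and Slc2a2 by 0.663. After quantile normalisation Pklr (-0.752, adjusted p = 0.00589), Pc (-0.414, 0.0292) and Slc2a2 (-0.350, 0.0432) passed as lower.

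For propiconazole 2500 against 500 ppm and myclobutanil 2000 against 500 ppm, limma called 0% of probe sets and 0 of the 8 genes, although all 8 differences were negative in both comparisons. At an unadjusted p under 0.05 there were 1.18% and 11% of probe sets, with 0 and 1 of the 8 genes. Pklr differed by -0.287 (95% interval -0.695 to 0.121) for propiconazole and by -0.475 (-0.834 to -0.117, adjusted p = 0.447) for myclobutanil. Differences were negative for 56.4% and 73.2% of all probe sets.

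Triadimefon carries a ketone, propiconazole a cyclic ketal and myclobutanil a nitrile beside the triazole ring, and 500 ppm is the feed level that all 3 share. In the 3 pairs at that level limma called 0% of probe sets and 0 of the 8 genes. At an unadjusted p under 0.05 there were 19.1%, 2.49% and 4.29% of probe sets for triadimefon against myclobutanil, triadimefon against propiconazole and propiconazole against myclobutanil, and 0, 1 and 0 of the 8 genes. For Pklr the intervals of the differences were -0.601 to 0.0751, -0.401 to 0.379 and -0.642 to 0.138 in that order, and for Pc -0.258 to 0.181, -0.349 to 0.157 and -0.196 to 0.310. The gene with the unadjusted p was Pfkfb1, -0.475 ± 0.210 for triadimefon against propiconazole (SE, adjusted p = 1). Adjusted in limma over the 3 pairs of a gene instead, that p was 0.0957, and the smallest were 0.294 for Pklr and 0.721 for Pc. The high levels differ between compounds and were not compared.

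Of 125 further genes in 8 lists of glucose pathways, 111 were analysed here, and few of these moved against the controls. At triadimefon 1800 ppm 1 of the 111 was called higher and 2 lower, beside 1.04% and 0.129% of all probe sets. Here 1 of 20 genes of glucose entry and glycolysis rose, the aldolase Aldoa, by 0.401 ± 0.0853 (SE, adjusted p = 0.0126), with 2.36, 1.73, 1.71 and 1.81 in triadimefon livers and 1.34 to 1.65 in controls. The groups did not overlap, as for 1.18% of probe sets. Of 8 sugar transporters 1 fell, the fructose transporter Slc2a5, by 0.244 ± 0.0626 (adjusted p = 0.0493), and of 11 known ChREBP targets besides Pklr 1 fell, the stearoyl-CoA desaturase Scd, by 1.75 ± 0.445 (adjusted p = 0.0479). Slc2a5 scored 0.121 to 0.296 in triadimefon livers and 0.285 to 0.716 in controls, and Scd 1.03 to 2.44 in triadimefon livers and 2.36 to 4.16 in controls, so that in both genes the highest triadimefon liver reached into the control range. The lists of gluconeogenesis (18 genes), pyruvate oxidation (8), glycogen (14), the pentose phosphate pathway (6) and hormonal and transcriptional control (26) had no call. Over the 111 genes the median difference was 0.0377, and 43 were negative, beside 34.3% of all probe sets.

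At propiconazole 2500 ppm 1 of the 111 genes passed, beside 0.254% of all probe sets (0.122% lower). It was Slc2a5, which fell by 0.307 ± 0.0626 (SE, adjusted p = 0.0283 in limma), with 0.156, 0.134, 0.260 and 0.116 in propiconazole livers and 0.285 to 0.716 in controls. In the other 4 comparisons with the controls 0 of the 111 passed. The smallest p at myclobutanil 2000 ppm belonged to Pdk1, a kinase that switches off pyruvate dehydrogenase, with -0.392 (adjusted p = 0.0580). At triadimefon 500 ppm it belonged to the serine dehydratase-like Sdsl with -0.287 (adjusted p = 0.0721), at propiconazole 500 ppm to Slc2a5 with -0.218 (0.536) and at myclobutanil 500 ppm to the hexokinase Hk2 with 0.0727 (1).

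Triadimefon 1800 against 500 ppm called 32 of the 111 genes higher and 3 lower, next to 22.3% and 2.46% of all probe sets. The calls of smallest p were the brain-type glycogen phosphorylase Pygb (0.245 ± 0.0359, adjusted p = 0.000353), Aldoa (0.523 ± 0.0913, 0.00137), the transketolase Tkt (0.876 ± 0.161, 0.00189), the widely expressed glucose-6-phosphatase G6pc3 (0.169 ± 0.0326, 0.00253), Sdsl (0.412 ± 0.0807, 0.00273) and the insulin-signalling kinase Akt1 (0.528 ± 0.121, 0.00623). The 3′–5′ differences of these groups did not overlap either, with 1.16 to 1.86 at 1800 ppm and 0.469 to 0.577 at 500 ppm, and with a covariate for that difference 88 in place of 7690 probe sets were called. The part of the 3′–5′ difference in the calls of these genes was not tested.

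As a description, the genes whose scores ran most like those of Pklr over the 32 arrays were Apoa4 (Pearson's r = 0.915), an apolipoprotein, Scd (0.882) and the triokinase Tkfc (0.814). Pc ran most like Pklr itself (0.786), the aminotransferase Agxt (0.784) and the kynurenine hydroxylase Kmo (0.760). The arrays share their treatment groups and their 3′–5′ differences, and these values carry no test. Pck1 and Fbp1 correlated with each other at 0.912, and ran most like the plasma protein genes Rbp4 (0.954 with Pck1) and Serping1 (0.968 with Fbp1). For the remaining genes the closest were Plin2 for Slc2a2 (0.897), Marveld1 for Gys2 (0.915), Edem1 for Pfkfb1 (0.815) and Fam193b for Mlxipl (0.832).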

How the data were processed

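The authors deposited a score for each probe set on each array, from Affymetrix rat genome arrays hybridised with labelled liver RNA, per the labels' protocols. The sources used here do not give the summary and normalisation behind the score. The test had been planned for a log scale and was run on the deposited scores unchanged. Array medians ran from 0.00531 to 0.0585 and array standard deviations from 0.701 to 1.02. The number of arrays limits the precision. Of 31099 probe sets, 57 Affymetrix controls were left out. The platform annotation gave 1 symbol to 20826 of the rest, several to 436 and none to 9780, and 20758 Entrez identifiers matched the rat gene table without a change of symbol.

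All 7 groups and 32 arrays entered 1 limma fit (limma 3.58.1, R 4.3.3 and the data.table package, 1.17.8) with 26.99 residual and prior degrees of freedom. Tests were two-sided and Benjamini-Hochberg adjusted over 31042 probe sets within each of 12 comparisons and the F test, at a threshold of 0.05. The procedure was tried on simulated data with independent noise for each probe set. That setting lacks the variation that probe sets of 1 array share in the real data. No arrays of 1 group held the same values, their correlations lying between 0.933 and 0.996. Besides the 9 listed genes, the text names every pathway list gene past the threshold, up to 6 by smallest p, those of smallest p where none passed (the 2 of smallest p in the tables, of which the text gives 1), and the genes of highest Pearson correlation with each gene. The genes and lists were chosen with earlier results of these data known. 14 of the 125 pathway genes were not analysed here. Alternatives were the replicate number or the animal number series as a block, and the 3′–5′ difference as a covariate. Others were removal of the arrays of high 3′–5′ difference, each number series alone, the second Pklr probe set, and omission of each single array. The rest were scores after quantile normalisation and a fit without the 40% of probe sets of lowest mean. Removal of the arrays of high Prm1 score was added after seeing the data. Promoters are RefSeq's, assembly GRCr8, matched for 8 of the 9 listed genes.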

Additional observations from a re-analysis of the deposited data

How the results depend on the processing

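Of the 2 calls at triadimefon 1800 ppm, that of Pklr held in 17 of 21 alternatives, with differences between -1.02 and -0.330. These 17 include all 11 fits that left out a single array. The call of Pc held in 9 of 20, of which 6 were fits that left out a single array. The Pc difference turned to 0.0103 leaving out high 3′–5′ arrays and to 0.0669 among animals numbered below 3000. In both of these triadimefon 1800 ppm is 1 array. For triadimefon 1800 against 500 ppm, Pc turned to 0.374 leaving out high 3′–5′ arrays with 1800 ppm as 1 array. There Slc2a2 turned to -0.350 (adjusted p = 0.0432 in limma) after quantile normalisation. In 1644 single-gene values under alternatives, 134 had the other sign, 130 of them with neither fit past the threshold. What sets these changes was not tested.

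The number of the 8 genes called at triadimefon 1800 ppm was 1 with the replicate block (Pc: -0.422, adjusted p = 0.0703), 1 with the number series as a block, 1 without the arrays of high Prm1 score, 0 in either number series alone, and 1 to 2 without single arrays. For triadimefon 1800 against 500 ppm it was 3 after quantile normalisation, 1 without the dimmest probe sets, 4 (all higher, 1 array against 5) leaving out high 3′–5′ arrays, and 0 to 2 without single arrays. At propiconazole 2500 ppm and myclobutanil 2000 ppm it was 0 to 2 without single arrays. In the F test it was 1 after quantile normalisation, 1 with the replicate block, 0 with the number series as a block, 0 with the covariate, 4 leaving out high 3′–5′ arrays, 0 without those of high Prm1 score, and 1 to 2 without single arrays.

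Probe sets called at triadimefon 1800 ppm, 362 in the reported fit, numbered 604 with the 3′–5′ covariate, 5495 leaving out high 3′–5′ arrays, 13 among animals above 3000, 2461 among those below, and 254 to 440 without single arrays. Quantile normalisation gave 305 higher and 127 lower there, beside 322 and 40 in the reported fit. At propiconazole 2500 ppm (79 reported) there were 311 after quantile normalisation, 10 with the replicate block, 18 with the series block, 25 with the covariate, 21 leaving out high 3′–5′ arrays and 8 to 1030 without single arrays. At myclobutanil 2000 ppm (20 reported) the same settings gave 79, 0, 2 and 2 up to the covariate, 8 without the arrays of high Prm1 score and 0 to 3013 without single arrays. At triadimefon 500 ppm (3 reported) there were 41 after quantile normalisation, 1 without the dimmest probe sets, 1 with the series block, 0 with the covariate, 0 leaving out high 3′–5′ arrays, 0 without those of high Prm1 score and 0 to 4464 without single arrays. At propiconazole 500 ppm (0 reported) there were 2 after quantile normalisation, 1 leaving out high 3′–5′ arrays and 0 to 1 without single arrays, and at myclobutanil 500 ppm (0 reported) 1, 8 and 0 to 2. For triadimefon 1800 against 500 ppm (7690 reported) there were 3001 after quantile normalisation (1661 higher and 1340 lower, beside 6927 and 763), 5113 without the dimmest probe sets, 763 with the series block, 88 with the covariate, 2962 without the arrays of high Prm1 score and 4442 to 7579 without single arrays. The F test (2099 reported) called 1124 after quantile normalisation, 95 with the series block, 160 with the covariate, 3864 leaving out high 3′–5′ arrays, 277 without those of high Prm1 score and 439 to 4358 without single arrays.

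The replicate numbers belong to different animals, and the samples were not taken as paired. No comparison had a correlation over 0.1 in every pair of same-numbered deviations. With 2 to 5 pairs per comparison, that check is too small to settle whether the numbers pair the samples. The groups were small, and the scale of the score is unknown.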
